A study of Mus musculus with 9 samples.

Results

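In mouse Reissner's membrane kept as an explant, 71 genes had more RNA after 24 h in culture than in fresh tissue and less RNA when dexamethasone was present than when it was not. They were picked out of 18193 genes by their measured values. Where a gene had several probe sets, the brightest by mean log2(signal + 32) over the 9 arrays was used. Its mean signal on incubated arrays had to be at least 200, the mean log2(signal + 32) at least 0.8 higher on incubated than on fresh arrays, and at least 0.8 lower on dexamethasone than on incubated arrays. Altogether 84 genes met these thresholds. Of 14 genes left out by name (Ifit1, Ifit3, Rsad2, Usp18, Oas1a, Ccl2, Ccl5, Cxcl2, Aqp5, Panx1, Adgre1, Mcm3, Idi1 and Ddit4), 13 met them and Rsad2 did not.

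Reissner's membrane is the thin sheet between the scala media and the scala vestibuli of the cochlea, with an epithelial and a mesothelial layer. The tissue came from adult mice, whose strain and sex the labels do not state, and 3 groups of 3 Affymetrix arrays were hybridized. Fresh membrane was extracted without incubation, incubated membrane was kept as an explant for 24 h with no agent, and dexamethasone membrane was kept for 24 h with the synthetic glucocorticoid dexamethasone. The dose was 100 nM in the design text and on the label of dexamethasone array A, whereas the labels of arrays B and C are typed in mM. Membranes were pooled and, per the design text, 3 chips were hybridized per biological sample. The 3 arrays of a group may thus be technical replicates of the same pool. The spread between arrays behind each p-value may then be purely technical, with no measure of the spread between biological samples. Organ culture involved no proliferation, per the labels.

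Glucocorticoids bind the glucocorticoid receptor, a transcription factor that activates some genes directly and represses many others by interfering with factors such as NF-kB, AP-1 and interferon regulatory factors. Type I interferon acts through STAT proteins and IRF9 on the interferon-stimulated response element (ISRE) in the promoters of interferon-induced genes, which encode antiviral GTPases, oligoadenylate synthetases and restriction factors. Chemokine, cyclooxygenase and matrix genes are further well-known targets of injury signalling and of its suppression by glucocorticoids.

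Promoter sequences, from 250 bases before to 50 bases after the annotated start, were found for 59 of the 71 members in the RefSeq table of GRCm38.p6. The promoters below are shown because Gbp3, Bst2 and Irgm1 are interferon-induced members with an ISRE match, Cxcl10 holds matches to the ISRE, NF-kB and AP-1 motifs together, and Sprr1a, whose incubated minus fresh difference of 4.83 (log2) is among the largest of the members, holds AP-1 matches and no ISRE match. They lie at chr3:142559794-142560093 (plus strand) for Gbp3, chr8:71537423-71537722 (minus strand) for Bst2, chr11:48871371-48871670 (minus strand) for Irgm1, chr5:92348840-92349139 (minus strand) for Cxcl10 and chr3:92485832-92486131 (minus strand) for Sprr1a. All are written 5′ to 3′ in the direction of transcription, and capitals mark matches to the ISRE, NF-kB and AP-1 motifs.
Gbp3: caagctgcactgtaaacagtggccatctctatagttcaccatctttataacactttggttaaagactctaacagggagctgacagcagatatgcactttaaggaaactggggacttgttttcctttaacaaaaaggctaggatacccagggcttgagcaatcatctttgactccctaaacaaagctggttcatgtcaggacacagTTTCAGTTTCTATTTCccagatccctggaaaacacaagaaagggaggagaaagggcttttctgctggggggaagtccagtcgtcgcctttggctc
Bst2: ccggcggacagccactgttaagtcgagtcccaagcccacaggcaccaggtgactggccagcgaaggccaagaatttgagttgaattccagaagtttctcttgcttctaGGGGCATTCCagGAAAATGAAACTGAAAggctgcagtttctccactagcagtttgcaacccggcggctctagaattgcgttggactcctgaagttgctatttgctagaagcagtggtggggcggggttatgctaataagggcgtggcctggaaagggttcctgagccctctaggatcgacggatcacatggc
Irgm1: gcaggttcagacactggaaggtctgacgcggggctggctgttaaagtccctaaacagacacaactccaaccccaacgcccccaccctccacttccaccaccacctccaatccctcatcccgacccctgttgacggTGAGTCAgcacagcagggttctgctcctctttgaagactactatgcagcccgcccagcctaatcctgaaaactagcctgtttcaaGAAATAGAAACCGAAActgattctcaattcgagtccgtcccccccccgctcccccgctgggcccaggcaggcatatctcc
Cxcl10: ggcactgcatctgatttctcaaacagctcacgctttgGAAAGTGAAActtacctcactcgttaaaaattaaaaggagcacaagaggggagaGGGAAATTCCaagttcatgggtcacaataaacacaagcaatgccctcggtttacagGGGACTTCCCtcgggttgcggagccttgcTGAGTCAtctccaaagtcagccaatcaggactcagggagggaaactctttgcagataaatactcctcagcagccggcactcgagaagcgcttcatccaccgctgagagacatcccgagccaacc
Sprr1a: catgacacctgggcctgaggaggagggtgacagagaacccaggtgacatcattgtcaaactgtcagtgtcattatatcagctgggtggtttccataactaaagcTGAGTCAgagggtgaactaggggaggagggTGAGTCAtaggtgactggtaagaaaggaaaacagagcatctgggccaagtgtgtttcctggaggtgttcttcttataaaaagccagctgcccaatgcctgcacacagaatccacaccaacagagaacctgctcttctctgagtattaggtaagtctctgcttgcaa

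In Gbp3 a pair of overlapping ISRE matches on the minus strand began 45 and 39 bases before the start. Bst2 had overlapping ISRE matches 130 and 124 bases before the start, next to an NF-kB match at 142. Irgm1 had them at 30 and 24 bases, with an AP-1 match at 115. In Cxcl10 the ISRE match lay 213 bases before the start, the NF-kB matches at 159 and 103 and the AP-1 match at 74. The AP-1 matches of Sprr1a lay at 146 and 116.

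Motifs were searched on both strands, except the TATA box, which was searched on the forward strand only. A gene with any match in any of its promoters was counted once. The ISRE letters, GAAA followed by any 2 bases and GAAA, were found in 6 of the 59 members with a promoter (10.2%), against 3.99% of all 27025 genes in the table. Among the interferon-induced members, 4 of 10 had them (Gbp2, Gbp3, Irgm1 and Bst2), and the others were Cxcl10 and Tgfbi. The AP-1 letters TGANTCA were found in 7 members (11.9%, against 8.97% of all genes) and the CRE letters TGACGTCA in 4 (6.78% against 2.03%). The NF-kB motif was found in 3 members (5.08% against 5.14%) and the TATA box letters TATAAA in 10 (16.9% against 9.77%). The full glucocorticoid response element, AGAACA followed by any 3 bases and TGTTCT, was in no member's window and in 0.0111% of all genes. Its left arm AGAACA was in 9 members (15.3% against 21.3%). These counts describe letters in a window of 300 bases and are not binding sites.

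The thresholds set what the members look like in the comparisons that chose them. Of 9190 genes with a mean incubated signal of at least 200, 1176 were higher by 0.8 or more in culture, 270 were lower by 0.8 or more with dexamethasone, and 84 met both conditions. These 84 were 7.14% of the genes higher in culture and 31.1% of the genes lower with dexamethasone. By contrast, 29 genes that were higher in culture were higher by a further 0.8 or more with dexamethasone. Members just inside the culture threshold were Timeless (0.81), Cyb561d2 (0.81) and Galnt12 (0.84), and the genes just outside were Osr1 (0.78), Rbl1 (0.76) and Sh3kbp1 (0.74). At the dexamethasone threshold Bst2 (-0.82), Slc39a2 (-0.83) and Mest (-0.83) lay just inside, and H2-Q5 (-0.798), Vps45 (-0.79) and Nrip1 (-0.78) just outside. At the signal threshold Ldlrad4 (200.3), Oasl1 (206) and Ccl3 (207) lay just inside, and Stc1 (191), Ccdc159 (184) and Rgs1 (166) just outside.

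**Figure D1:**
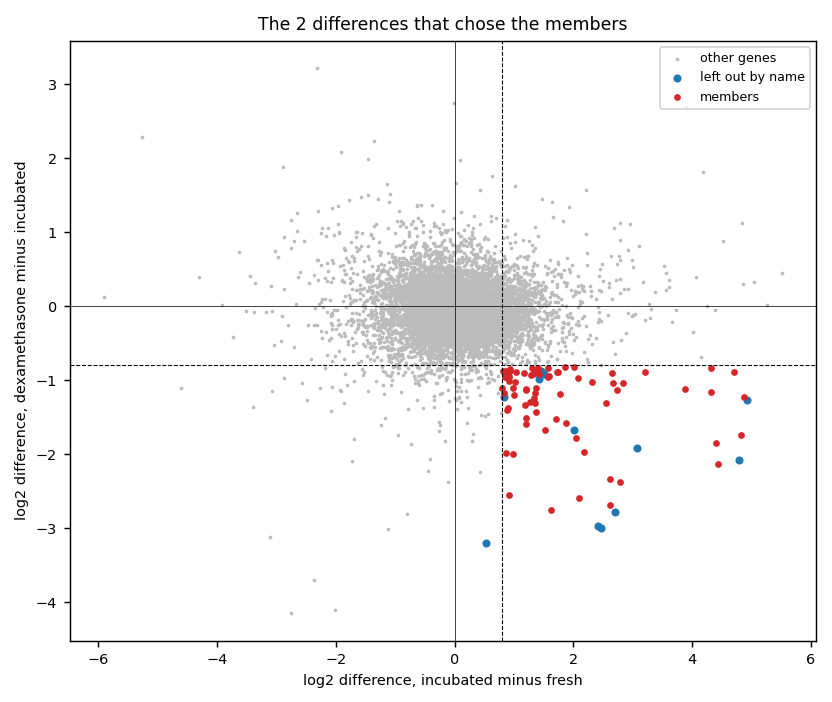
Each point is a gene with a mean incubated signal of at least 200, placed by its log2 difference incubated minus fresh (horizontal) and dexamethasone minus incubated (vertical), with dashed lines at the thresholds of 0.8 and -0.8. The 71 members (red) fill the lower right corner by construction, together with 13 of the 14 genes left out by name (blue), while most genes lie near the origin.

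Across the members the difference between incubated and fresh arrays ranged from 0.81 to 4.88 with a median of 1.41 on the log2 scale. The difference between dexamethasone and incubated arrays ranged from -2.75 to -0.82 with a median of -1.11. All 71 had every incubated array above every fresh and every dexamethasone array, which the thresholds largely fix. The same held for 35.7% and 29.0% of all probe sets tested, respectively. In bulk tissue, fewer cells of a type and less RNA per cell cannot be told apart.

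The thresholds left only partly free how far the dexamethasone arrays came back towards fresh tissue. Where the rise was close to 0.8, as in Timeless (0.81), a fall of at least 0.8 made the missing part close to or over 100%. The median and the count over 100% below are therefore partly set by the thresholds. The part of the log2 rise that was missing with dexamethasone is given only for the 30 members with a fresh mean of at least 200, since 41 had a fresh mean under it and their rise has no measured start. In these 30 the missing part had a median of 96.1%, with the lowest value in Cited1 (27.7%) and the highest in Gbp6 (203%) and in Clec7a (227%), whose treated mean lay under 200. It was under 50% in 4 members (Cited1, Akr1b8, Slc39a2 and Axl) and over 100% in 14.

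**Figure D2:**
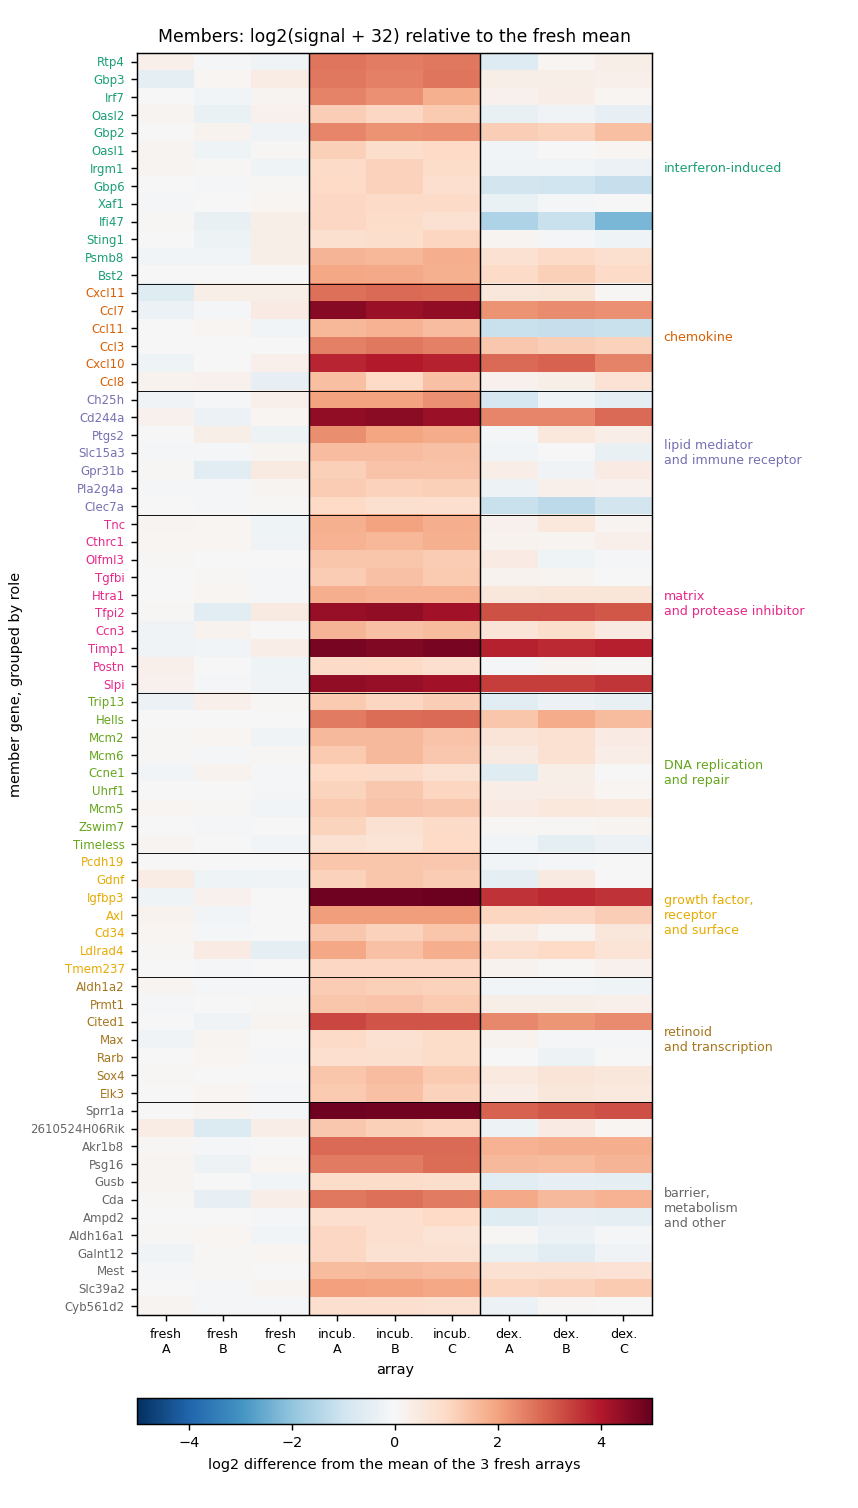
Rows are the 71 members grouped by role, columns are the 9 arrays, and colour gives log2(signal + 32) minus the mean of the 3 fresh arrays. Incubated columns are red throughout, while dexamethasone columns run from blue (Clec7a, Ccl11, Gbp6) through near white to strong red (Timp1, Igfbp3, Slpi, Sprr1a). Signals under 200 are drawn as measured, so colours of members with a low fresh level have no exact size.

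Dexamethasone arrays were compared with fresh arrays, a contrast the thresholds did not use directly although they constrain it through the shared arrays. Changes below are log2 differences ± SE from a limma fit of all 18913 probe sets that reached 200 on at least 3 arrays. There were n = 3 arrays per group, and a call was an adjusted p under 0.05. Of the 71 members, 67 were tested, and 18 of these passed the filter only through their incubated arrays. Ccl8, Gdnf, Ldlrad4 and Oasl1 were not tested. In 23 of the 67, both the fresh and the dexamethasone mean lay under 200, so no difference is given for them. A further 14 had a fresh mean under 200 and a dexamethasone mean above it, and could only come out higher.

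Among the 30 members with a fresh mean of at least 200, a subset taken after the values were seen, 12 were higher with dexamethasone than in fresh tissue, 7 were lower and 11 were not called. For all tested probe sets with a fresh mean of at least 200, 34.1% were called higher and 41.6% lower. The median difference of these 30 was 0.042, against -0.0054 over all probe sets tested. Over the 44 members with a level in either group, 26 were higher and 7 lower, against 38.0% and 38.7% of all probe sets with such a level. The 7 lower members were Ccl11, Clec7a, Gbp6, Ampd2, Gusb, Timeless and Aldh1a2. The 11 that were not called had differences of -0.20 to 0.28, and their 95% intervals reached from -0.50 to 0.63. With each array's hybridization controls as the scale, which moved the median difference of all probe sets in this comparison by -0.147, the lower calls rose from 7 to 11 and the higher calls were 24.

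**Figure D3:**
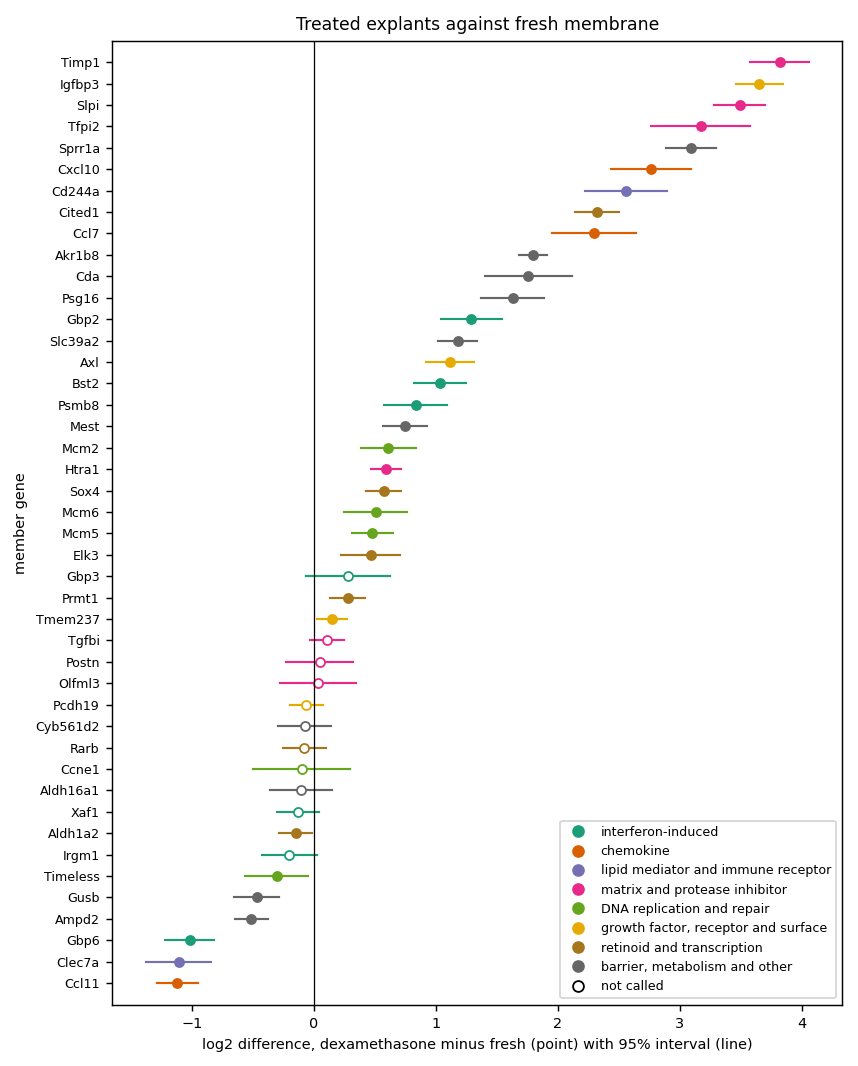
Points are the log2 differences dexamethasone minus fresh of the 44 members with a mean signal of at least 200 in either group. Lines are 95% intervals from the limma fit (n = 3 arrays per group), colours give the role and open points were not called. Differences run from -1.12 for Ccl11 to 3.82 for Timp1, and 26 filled points lie to the right of zero and 7 to the left.

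The interferon-induced members, the largest group by role with 13 genes, were Rtp4, Gbp2, Gbp3, Gbp6, Irf7, Irgm1, Ifi47, Oasl1, Oasl2, Xaf1, Bst2, Psmb8 and Sting1. With dexamethasone, 3 were higher than in fresh tissue, 1 was lower, 3 were not called, 5 had no level in either group and Oasl1 was not tested. In this comparison 37.8% of all probe sets tested were called higher and 38.4% lower. The higher members, Gbp2, Bst2 and Psmb8, had fresh means under 200 and could only come out higher.

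Rtp4, an interferon-induced receptor transporter protein, had signals of 184, 141 and 128 on fresh arrays, 1119, 1043 and 1097 on incubated arrays and 85.3, 164 and 193 on dexamethasone arrays, each set in the order A, B and C. The incubated mean stood at least 5.43-fold above the fresh arrays, and the fresh and dexamethasone arrays overlapped below 200. Irf7, the transcription factor that amplifies type I interferon production, gave 161, 142 and 181 on fresh arrays, 1042, 910.5 and 633 on incubated arrays and 194, 213 and 172 on dexamethasone arrays. Its incubated arrays were spread from 633 to 1042, and the dexamethasone arrays overlapped the fresh ones.

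The guanylate-binding proteins, interferon-induced GTPases, did not all return to the same place. Gbp3 had 147, 228 and 285 on fresh arrays, 1509.6, 1378 and 1552 on incubated arrays and 268, 269 and 262 on dexamethasone arrays, and dexamethasone minus fresh was 0.28 (95% interval -0.061 to 0.63, adjusted p = 0.122). Without fresh array C this difference was 0.47 and was called (adjusted p = 0.00872). The dexamethasone arrays of Gbp3 thus sat within the range of the fresh arrays.

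Gbp2 gave 176, 195 and 146 on fresh arrays, 1062, 926 and 951 on incubated arrays and 439.9, 421 and 546 on dexamethasone arrays. Here the dexamethasone arrays stayed above all fresh arrays, and their mean was 2.35-fold the level of 200. The difference was 1.29 ± 0.116 (adjusted p = 3.85e-07). Gbp6 had 580.5, 569 and 615 on fresh arrays, 1203, 1328 and 1070.1 on incubated arrays and 300.5, 279 and 246 on dexamethasone arrays. Its treated arrays lay below every fresh array, by -1.02 ± 0.0937 (adjusted p = 4.94e-07). On these probe sets Gbp2 and Gbp6 therefore ended on opposite sides of fresh tissue. That of Gbp2 has a suffix that marks possible hybridization to related transcripts. Another Gbp2 probe set without it had means of 216, 660 and 369 on fresh, incubated and dexamethasone arrays.

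Irgm1 encodes an immunity-related GTPase of the autophagy pathway. It gave signals of 472, 438 and 359 on fresh arrays, 835, 959.8 and 818 on incubated arrays and 372, 375 and 338 on dexamethasone arrays. Dexamethasone minus fresh was -0.20 (95% interval -0.42 to 0.024, adjusted p = 0.0942), with 2 of the dexamethasone arrays inside the fresh range and the other below it. Without fresh array C the difference was -0.31 and was called (adjusted p = 0.0129).

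Xaf1, a partner of the apoptosis inhibitor XIAP, had 1164, 1219 and 1302 on fresh arrays, 2583, 2398 and 2385 on incubated arrays and 979, 1150.3 and 1242 on dexamethasone arrays. The difference from fresh was -0.13 (95% interval -0.30 to 0.044, adjusted p = 0.157), and it became -0.20 with an adjusted p of 0.0352 without dexamethasone array C. Bst2, the antiviral membrane protein tetherin, gave 130.3, 137 and 132 on fresh arrays, 591, 582 and 527 on incubated arrays and 288, 340.4 and 291 on dexamethasone arrays. All its dexamethasone arrays exceeded all fresh arrays, with a mean 1.53-fold the level of 200, and the difference was 1.03 ± 0.0979 (adjusted p = 6.53e-07).

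Oasl2, an oligoadenylate synthetase-like protein, had 144, 94.9 and 157 on fresh arrays, 343, 302 and 372 on incubated arrays and 93.6, 110.2 and 90.5 on dexamethasone arrays. Its neighbour Oasl1 gave 98.3, 69.3 and 90.1 on fresh arrays, 233, 181 and 203 on incubated arrays and 73.7, 85.2 and 95.1 on dexamethasone arrays. In both genes the fresh and treated arrays stayed under 200, so only the incubated arrays carried a level, and 1 incubated array of Oasl1 lay under 200 too. Psmb8, an immunoproteasome subunit, was higher with dexamethasone than in fresh tissue by 0.84 ± 0.12 (adjusted p = 3.14e-05). Ifi47, another immunity-related GTPase, and Sting1, the adaptor of cytosolic DNA sensing, had no level outside the incubated arrays by their group means.

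The chemokine members, secreted attractants of leukocytes, were Cxcl10, Cxcl11, Ccl3, Ccl7, Ccl8 and Ccl11. With dexamethasone 2 were higher than in fresh tissue and 1 was lower, 2 had no level and Ccl8 was not tested (background 37.8% higher and 38.4% lower). The higher members, Cxcl10 and Ccl7, had fresh means under 200 and could only come out higher. Cxcl10, a ligand of CXCR3, had signals of 6.90, 13.5 and 21.7 on fresh arrays, 608, 685 and 633 on incubated arrays and 293, 324 and 225 on dexamethasone arrays. The incubated mean was 2.29-fold the treated mean. The treated mean was 1.4-fold the level of 200, with a difference from fresh of 2.76 ± 0.152 (adjusted p = 3.51e-09). Cxcl11, a ligand of the same receptor, gave 13.8, 52.6 and 52.4 on fresh arrays, 428, 456 and 452 on incubated arrays and 71.4, 73.2 and 40.4 on dexamethasone arrays. Its treated arrays, unlike those of Cxcl10, were all under 200.

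Ccl7, a monocyte attractant, had 7.30, 13.8 and 31.8 on fresh arrays, 1093, 944 and 1021 on incubated arrays and 197, 221 and 204 on dexamethasone arrays. The incubated mean was 4.92-fold the treated mean, and the treated arrays, centred at about 200, were higher than fresh by 2.30 ± 0.158 (adjusted p = 2.99e-08). Ccl11, the eosinophil attractant eotaxin, differed from the other chemokines in having a clear level in fresh tissue. It gave 864, 910.5 and 754 on fresh arrays, 2694, 2856 and 2483 on incubated arrays and 371, 362 and 376 on dexamethasone arrays.

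The treated arrays of Ccl11 lay below all fresh arrays, and the incubated mean was 3.18-fold the fresh mean and 7.24-fold the dexamethasone mean. Dexamethasone minus fresh was -1.12 ± 0.0775 (adjusted p = 3.21e-08). Ccl3, which attracts monocytes and T cells, had 9.10, 8.30 and 8.60 on fresh arrays, 201, 219.5 and 202 on incubated arrays and 72.7, 63.2 and 59.0 on dexamethasone arrays, so its incubated arrays barely cleared 200. Ccl8, another monocyte attractant, gave 92.2, 93.1 and 50.2 on fresh arrays, 274, 187 and 268 on incubated arrays and 95.6, 99.2 and 148 on dexamethasone arrays, with 1 incubated array under 200.

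**Figure D4:**
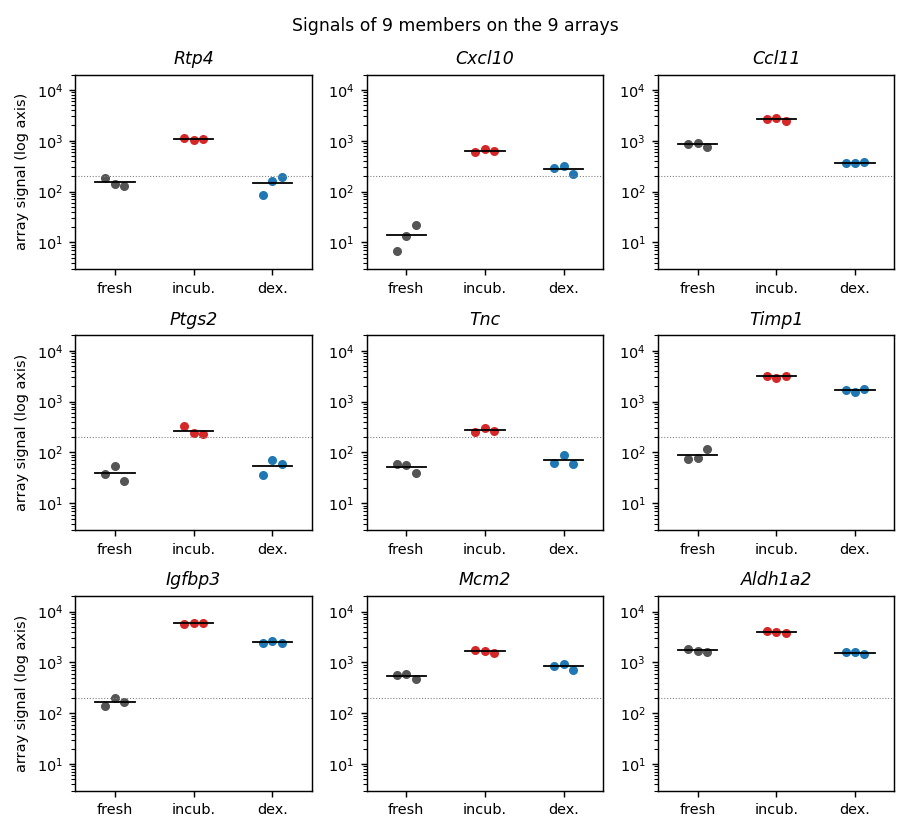
Array signals (log axis) of 9 members on the 9 arrays, with points for single arrays, bars for group means and a dotted line at 200, below which no level is given. Rtp4, Ptgs2 and Tnc returned under 200 with dexamethasone, Ccl11 went below its fresh arrays, Cxcl10, Timp1, Igfbp3 and Mcm2 stayed above them, and Aldh1a2 returned close to them.

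The lipid mediator and immune receptor group held 7 genes: Ptgs2, Pla2g4a, Gpr31b, Ch25h, Clec7a, Cd244a and the transporter gene Slc15a3. Only Cd244a and Clec7a had a level in fresh or treated tissue, the first being higher with dexamethasone than in fresh tissue and the second lower (background 37.8% and 38.4%). Cd244a had a fresh mean under 200 and could only come out higher. Ptgs2, the inducible cyclooxygenase, had signals of 38.0, 54.5 and 27.7 on fresh arrays, 329, 245 and 227 on incubated arrays and 36.1, 70.9 and 58.6 on dexamethasone arrays. Pla2g4a, the cytosolic phospholipase that releases its substrate arachidonic acid, gave 137, 138 and 162 on fresh arrays, 391, 363 and 375 on incubated arrays and 118, 180.1 and 172 on dexamethasone arrays. For both enzymes of this pathway the treated arrays lay under 200, as the fresh arrays did.

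Ch25h makes 25-hydroxycholesterol, an oxysterol that restrains viral entry and sterol synthesis. It had 114, 122 and 165 on fresh arrays, 631, 625 and 763 on incubated arrays and 59.3, 111 and 87.7 on dexamethasone arrays. The incubated mean stood at least 3.37-fold over the others' upper limit of 200, and the treated arrays were under 200.

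Clec7a, the beta-glucan receptor dectin-1 of myeloid cells, had 221, 207 and 226 on fresh arrays, 467, 403 and 411 on incubated arrays and 83.9, 68.6 and 102 on dexamethasone arrays. Treated arrays were under 200 and below every fresh array, so that the fresh mean was at least 1.09-fold over them. The fitted difference was -1.11 ± 0.124 (adjusted p = 3.28e-06). Cd244a, a receptor of natural killer and other leukocytes, gave 18.5, 3.40 and 15.4 on fresh arrays, 906, 958 and 839.6 on incubated arrays and 204, 208 and 277 on dexamethasone arrays. Its treated arrays lay just above 200 and its incubated arrays far above, and the difference between treated and fresh arrays was 2.56 ± 0.155 (adjusted p = 8.7e-09).

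Markers of leukocytes moved in these samples as well. Of 24 macrophage markers, all on the array, 18 were tested. In culture 10 were higher and 4 lower than in fresh tissue, and with dexamethasone 6 were higher and 5 lower than in incubated tissue. Over all probe sets tested the shares were 35.0% and 40.1% in culture and 27.1% and 25.5% with dexamethasone. Adgre1 of this list met the thresholds and was left out by name, so they fixed its rise and fall. The summed signal of the 24 markers was 11489 to 11870 on fresh, 12150 to 12446 on incubated and 12737 to 12816 on dexamethasone arrays on the deposited scale. The median macrophage marker difference between dexamethasone and incubated arrays was -0.047 on that scale and -0.52, with 2 higher and 11 lower, on the hybridization control scale. Fcgr1, Itgam, Aif1 and Cd163 were under 200 on every array. The summed signal of 9 neutrophil markers went from 21116 to 21841 on fresh arrays to 3918 to 4048 on incubated and 188 to 382 on dexamethasone arrays. All 9 lymphocyte markers on the array were under 200 on every array. The part of these cells in the chemokine and receptor values was not tested.

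The matrix and protease inhibitor genes were Tnc, Cthrc1, Tgfbi, Postn, Olfml3, Htra1, Timp1, Tfpi2, Slpi and Ccn3. With dexamethasone 4 of the 10 were higher than in fresh tissue, none was lower, 3 were not called and 3 had no level, and over all probe sets 37.8% were called higher and 38.4% lower. Of the higher members, Timp1, Slpi and Tfpi2 had fresh means under 200 and could only come out higher. The inhibitors and the matrix proteins are taken in turn.

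Timp1, an inhibitor of matrix metalloproteinases, had signals of 75.5, 77.6 and 119 on fresh arrays, 3253, 2962 and 3181 on incubated arrays and 1717, 1564 and 1751 on dexamethasone arrays. The treated mean was 8.39-fold the fresh limit of 200, and the incubated mean was 1.87-fold the treated mean. Dexamethasone minus fresh was 3.82 ± 0.112 (adjusted p = 1.23e-11). Slpi, an inhibitor of leukocyte elastase, gave 207, 166 and 147 on fresh arrays, 4322, 4197 and 3689.6 on incubated arrays and 2202, 2182 and 2401 on dexamethasone arrays. Its incubated mean was 1.8-fold the treated mean, and dexamethasone minus fresh was 3.49 ± 0.0971 (adjusted p = 7.37e-12).

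Tfpi2, a Kunitz-type inhibitor of serine proteases, had 21.9, 4.00 and 38.3 on fresh arrays, 1024, 1069 and 916 on incubated arrays and 430.3, 452 and 414 on dexamethasone arrays. The difference from fresh was 3.17 ± 0.187 (adjusted p = 6.83e-09), or at least 2.16-fold against 200. Thus all 3 protease inhibitors remained well above fresh tissue. Htra1, a secreted serine protease, gave 1211, 1351 and 1176 on fresh arrays, 4505, 4238 and 4273 on incubated arrays and 1875, 1894 and 1910.3 on dexamethasone arrays. Treated arrays lay between the other groups without overlap, 0.59 ± 0.0573 (adjusted p = 7.78e-07) above fresh.

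Among the matrix proteins, Tgfbi, a secreted adhesion protein, had 3131, 3163 and 2867 on fresh arrays, 7335, 8561 and 7554 on incubated arrays and 3406, 3339.5 and 3119 on dexamethasone arrays. Its incubated mean was 2.56-fold the fresh mean, while treated arrays overlapped the fresh ones, with a difference of 0.11 (95% interval -0.034 to 0.25, adjusted p = 0.151). Tnc, the matrix glycoprotein tenascin C, gave 58.6, 56.2 and 39.2 on fresh arrays, 253, 304 and 258 on incubated arrays and 63.2, 87.3 and 60.1 on dexamethasone arrays. Cthrc1, a secreted protein of remodelling matrix, had 130.1, 129.6 and 102 on fresh arrays, 469, 447 and 486 on incubated arrays and 138, 137 and 149 on dexamethasone arrays. Both had a level on incubated arrays only. Postn (periostin) and Olfml3 were not called against fresh, and Ccn3, a matricellular protein, had no level outside incubated arrays by its means.

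The DNA replication and repair members were Mcm2, Mcm5, Mcm6, Hells, Uhrf1, Ccne1, Trip13, Timeless and Zswim7. With dexamethasone 3 of the 9 were higher than in fresh tissue, 1 was lower, 1 was not called and 4 had no level (background 37.8% higher and 38.4% lower). The 3 that were higher were all subunits of the MCM helicase, which unwinds DNA at replication origins. Mcm2 had signals of 563, 579.5 and 466 on fresh arrays, 1729, 1706 and 1509 on incubated arrays and 861, 935 and 715 on dexamethasone arrays. Mcm5 gave 549, 532 and 460.1 on fresh arrays, 1317, 1423 and 1355 on incubated arrays and 684, 759.9 and 741 on dexamethasone arrays. Mcm6 had 295, 263 and 292 on fresh arrays, 752, 946 and 760.2 on incubated arrays and 404, 495 and 359 on dexamethasone arrays.

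In each of the MCM genes the treated arrays lay between the fresh and incubated arrays without overlapping either. Dexamethasone minus fresh was 0.61 ± 0.104 (adjusted p = 0.000151) for Mcm2, 0.48 ± 0.0772 (adjusted p = 8.79e-05) for Mcm5 and 0.51 ± 0.12 (adjusted p = 0.00178) for Mcm6. Their probe sets have suffixes that mark possible hybridization to related transcripts, as do those of Gbp2, Tgfbi, Ampd2, Ccne1, Trip13, Sting1 and Ldlrad4. Ccne1, the G1/S cyclin E1, gave 237, 301 and 253 on fresh arrays, 562, 536 and 469 on incubated arrays and 162, 326 and 266 on dexamethasone arrays, so that treated arrays spread around the fresh ones, with a difference of -0.10 (95% interval -0.50 to 0.30, adjusted p = 0.63).

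Timeless, a replication fork protein, was lower with dexamethasone than in fresh tissue by -0.30 ± 0.118 (adjusted p = 0.0326), a call that was lost without fresh array A or B, without dexamethasone array B or C, with quantile normalization or median centring, and without the filter (adjusted p 0.054 to 0.148). Hells, a chromatin remodeller, Uhrf1, a factor of maintenance DNA methylation, Trip13, an AAA ATPase, and Zswim7, a recombination factor, had no level in fresh or treated tissue by the means of both groups.

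A list of 22 cell cycle genes puts these members beside the rest of the cycle. Of the 11 tested genes in it that are not members, 5 were higher and 6 lower in culture than in fresh tissue, and 7 were lower and 1 higher with dexamethasone than in incubated tissue, among them Mki67 and Top2a with both means under 200. Over all probe sets tested, 35.0% were called higher and 40.1% lower in culture, and 27.1% were called higher and 25.5% lower with dexamethasone. With dexamethasone Mcm7 fell by 0.61 ± 0.0464 (adjusted p = 5.87e-07), Mcm3 fell by 0.92 ± 0.0723 (adjusted p = 7.89e-07) and Pcna, the sliding clamp of DNA polymerases, fell by 0.53 ± 0.0561 (adjusted p = 8.18e-06). Mcm3 met the thresholds and was left out by name, so the thresholds fixed its fall. Mki67, a marker of cycling cells chosen here after its values were seen, fell in culture by 4.07 ± 0.136 (adjusted p = 4.24e-11), from a mean of 1433 to 55.8. Its incubated mean was thus under 200, in the same arrays in which the MCM genes were high.

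Growth factors, receptors and surface proteins formed a group of 7: Gdnf, Igfbp3, Axl, Cd34, Pcdh19, Ldlrad4 and Tmem237. With dexamethasone 3 were higher than in fresh tissue, none was lower, 1 was not called and 1 had no level. The background was 37.8% higher and 38.4% lower. Igfbp3, which encodes a carrier protein for insulin-like growth factors, had signals of 142, 203 and 164 on fresh arrays, 5724, 5832 and 6019 on incubated arrays and 2414, 2626 and 2427 on dexamethasone arrays. Treated arrays stood far above fresh arrays and below incubated arrays, with an incubated mean 2.35-fold the treated mean and a difference from fresh of 3.65 ± 0.0898 (adjusted p = 2.36e-12). Igfbp3 had a fresh mean under 200 and could only come out higher. Axl, a receptor tyrosine kinase that binds Gas6, was also higher with dexamethasone than in fresh tissue, by 1.12 ± 0.0918 (adjusted p = 1.66e-07).

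Pcdh19, a cell adhesion protocadherin, had mean signals of 661, 1753 and 631 in fresh, incubated and treated tissue and was not called against fresh, at -0.063 (95% interval -0.20 to 0.072, adjusted p = 0.37). Tmem237, a protein of the ciliary transition zone, was higher by 0.15 ± 0.0581 (adjusted p = 0.032), a call lost without fresh array B and without dexamethasone array A or C. This call was also lost with the 2 compared groups fitted alone and on the hybridization control scale. The neurotrophic factor Gdnf and Ldlrad4, a regulator of TGF-beta signalling, had incubated means just above 200 and were not tested. Cd34, a sialomucin of progenitor and endothelial cells, had no level in fresh or treated tissue.

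The retinoid and transcription members were Aldh1a2, Rarb, Cited1, Elk3, Sox4, Max and Prmt1. With dexamethasone 4 of the 7 were higher than in fresh tissue, 1 was lower, 1 was not called and 1 had no level, against 37.8% higher and 38.4% lower over all probe sets. Aldh1a2 makes retinoic acid from retinaldehyde, and Rarb is a retinoic acid receptor whose gene is a classical target of retinoic acid. Aldh1a2 had signals of 1869, 1666 and 1631 on fresh arrays, 4199.8, 3914 and 3817 on incubated arrays and 1580.2, 1574 and 1493 on dexamethasone arrays. Rarb gave 1209.8, 1302 and 1137 on fresh arrays, 2183, 2156 and 2319.5 on incubated arrays and 1233, 1004 and 1229.8 on dexamethasone arrays.

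For both retinoid genes the treated arrays came back to about the fresh arrays. Aldh1a2 was lower than fresh by -0.15 ± 0.0616 (adjusted p = 0.0436), a call lost in 10 of the alternative settings (adjusted p 0.0519 to 0.202), among them those without fresh array A, incubated array B or any of the dexamethasone arrays. Rarb was not called, at -0.076 (95% interval -0.25 to 0.099, adjusted p = 0.403). The array values of Aldh1a2 and Rarb were chosen for printing after they were seen.

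Cited1, a transcriptional coactivator, had 573, 489 and 620.4 on fresh arrays, 5914, 5230.3 and 5199 on incubated arrays and 3070.1, 2694 and 3009.7 on dexamethasone arrays. Its incubated mean was 9.71-fold the fresh mean and 1.86-fold the treated mean, and the treated arrays lay 2.32 ± 0.0842 (adjusted p = 7.69e-11) above fresh. The ETS factor Elk3 (0.47 ± 0.111 (adjusted p = 0.00193)), the SOX factor Sox4 (0.57 ± 0.0666 (adjusted p = 4.6e-06)) and the arginine methyltransferase Prmt1 (0.28 ± 0.0662 (adjusted p = 0.00202)) were higher than fresh with dexamethasone as well. The call of Prmt1 was lost on the hybridization control scale. Max, the partner of MYC, had no level outside incubated arrays by its means.

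The remaining 12 members were Sprr1a, Slc39a2, Psg16, Cda, Akr1b8, Ampd2, Aldh16a1, Galnt12, Gusb, Cyb561d2, Mest and 2610524H06Rik. With dexamethasone 6 were higher than in fresh tissue, 2 were lower, 2 were not called and 2 had no level (37.8% and 38.4% over all probe sets). Of the higher members, Sprr1a, Psg16, Cda and Mest had fresh means under 200 and could only come out higher. Sprr1a, a cornified envelope precursor that is induced in stressed epithelia, had signals of 36.3, 43.4 and 32.7 on fresh arrays, 1983, 1932 and 1914 on incubated arrays and 504, 570.3 and 610.5 on dexamethasone arrays. The treated mean was 2.81-fold the level of 200. The incubated mean was 3.46-fold the treated mean, and the difference from fresh was 3.09 ± 0.0939 (adjusted p = 1.52e-11).

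Ampd2, the AMP deaminase, gave 2192, 2178 and 2036 on fresh arrays, 3870.4, 3869 and 4232 on incubated arrays and 1377, 1578 and 1517 on dexamethasone arrays. Its treated arrays lay below all fresh arrays, by -0.51 ± 0.062 (adjusted p = 6.86e-06). The lysosomal enzyme Gusb also ended lower, by -0.47 ± 0.0842 (adjusted p = 0.000226). The aldo-keto reductase Akr1b8 (1.79 ± 0.0531 (adjusted p = 1.27e-11)), the zinc transporter Slc39a2 (1.18 ± 0.0742 (adjusted p = 1.28e-08)) and the cytidine deaminase Cda (1.76 ± 0.163 (adjusted p = 5.36e-07)) stayed above fresh tissue, as did Psg16 and Mest.

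Second probe sets for the same genes give a measure that did not choose the members. Of the members, 30 had further probe sets, 47 in all, and 27 of these had every group mean under 200. The incubated mean was above the fresh mean and the dexamethasone mean below the incubated mean in 35 of the 47, against 24.1% of all 34945 probe sets with a gene symbol. Every group mean was under 200 in 51.5% of all these probe sets. Of the 20 other probe sets of members with an incubated mean of at least 200, 19 had both directions. Both differences reached 0.8 in 12 of the 47, against 0.504% of all. Among those above 200, the other probe set of Ampd2 was lower in incubated than in fresh tissue (-0.69), and those of Sox4 differed by only -0.23 and -0.017 between dexamethasone and incubated arrays, against -0.84 for the chosen one. Probe sets of a gene share its RNA and the arrays, so they are no further replicates.

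Some members lie next to each other in the genome. Counting protein-coding genes of RefSeq, Ptgs2 and Pla2g4a on chromosome 1 had none between them, nor had Oasl1 and Oasl2 on chromosome 5, which 2610524H06Rik neighbours with 1 gene between it and Oasl2. On chromosome 11, Ccl7 and Ccl11 were adjacent, Ccl8 lay beyond Ccl11 with 1 gene between them, and the left-out Ccl2 was on the other side of Ccl7. Gbp2 and Gbp3 on chromosome 3 had 1 gene between them. With dexamethasone Ccl7 stayed above fresh tissue while its neighbour Ccl11 went below it, whereas in the pairs of Ptgs2 with Pla2g4a and of Oasl1 with Oasl2 both genes had fresh and treated means under 200.

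Fixed gene lists place the members among other genes of their pathways. Listed genes that are not members missed a threshold or were left out by name. In the interferon-induced list, 24 of 37 genes were tested, 8 of them members. Of the 16 tested genes that are not members, 14 were higher and 1 was lower in culture (median 0.53), 13 were lower and none was higher with dexamethasone than in incubated tissue (median -0.84), and against fresh 4 were higher and 8 lower. The medians over all probe sets were -0.050, 0.0071 and -0.0054 in the same order, and the backgrounds 35.0% higher in culture and 25.5% lower with dexamethasone. The 16 include genes that met the thresholds and were left out by name, Ifit1, Ifit3 and Usp18 among them. For these the thresholds fixed the rise and the fall, so the counts and medians of the 16 are partly set by the thresholds. Ifit1 fell by 2.78 ± 0.0656 with dexamethasone (adjusted p = 3.34e-11), Ifit3 fell by 2.97 ± 0.0799 (adjusted p = 1.25e-10) and Rsad2 fell by 3.20 ± 0.11 (adjusted p = 8.47e-10), all 3 among the genes left out by name. The thresholds fixed the fall of Ifit1 and Ifit3, whereas Rsad2 missed the culture threshold (0.53). Irf1, Irf9 and Ifi202b, chosen after their values were seen, rose in culture by 0.96, 0.63 and 5.27 but differed by -0.071, -0.0040 and 0.010 with dexamethasone, none of which was called.

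In the chemokine list 12 of 24 genes were tested, 5 of them members. Of the 7 others, 5 rose and 1 fell in culture, and with dexamethasone 3 rose and 3 fell (median 0.057). The 3 that fell with dexamethasone had risen in culture. Cxcl2 fell by 1.91 ± 0.128 (adjusted p = 2.04e-07) and Ccl5 fell by 2.07 ± 0.144 (adjusted p = 2.69e-07), whereas Cxcl12 rose by 0.68 ± 0.0559 (adjusted p = 1.09e-06). Cxcl2, Ccl5 and Ccl2 (dexamethasone minus incubated -1.27) met the thresholds and were left out by name, so the thresholds fixed their fall.

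No gene of the NF-kB list, which holds the subunits and feedback inhibitors of the factor, was a member. Of 12 tested, 11 rose and none fell in culture (median 1.42), and with dexamethasone 8 rose and 1 fell relative to incubated tissue (median 0.26), a median that is -0.21 with none higher and 6 lower on the hybridization control scale. Tnfaip3, a feedback inhibitor, rose by 0.51 ± 0.0796 with dexamethasone (adjusted p = 0.000192), and Nfkbia, another, by 0.32 ± 0.0486 (adjusted p = 0.00016). No gene of the AP-1 and immediate early list was a member either. Of 21 tested, 18 rose and none fell in culture (median 1.75), and 12 rose and 3 fell with dexamethasone (median 0.26), against a median of -0.22 with 4 higher and 11 lower on the hybridization control scale. Relative to all probe sets the medians of both lists with dexamethasone were 0.25 on that scale. On the deposited scale 35.0% of all probe sets tested rose and 40.1% fell in culture, and 27.1% rose and 25.5% fell with dexamethasone.

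No gene of the glucocorticoid-induced list was a member, and 25 of 29 tested rose with dexamethasone relative to incubated tissue (Hif3a with both means under 200) and 2 fell (median 0.67, and 0.19 with 15 higher and 8 lower on the hybridization control scale). In culture without the agent 7 of the 29 rose and 16 fell (median -0.48). The shares over all probe sets were 27.1% up and 25.5% down with dexamethasone, and 35.0% up and 40.1% down in culture. Zbtb16 rose by 3.22 ± 0.0733 with dexamethasone (adjusted p = 2.93e-11). Ddit4 of this list, which was left out by name, went the other way and fell by 1.23 ± 0.0823 (adjusted p = 2.04e-07). It met the thresholds, so they fixed its fall. On the hybridization control scale the median of all probe sets shifted by 0.329 for incubated minus fresh and by -0.476 for dexamethasone minus incubated, and 497 genes, all 71 members among them, then met the thresholds.

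**Figure D5:**
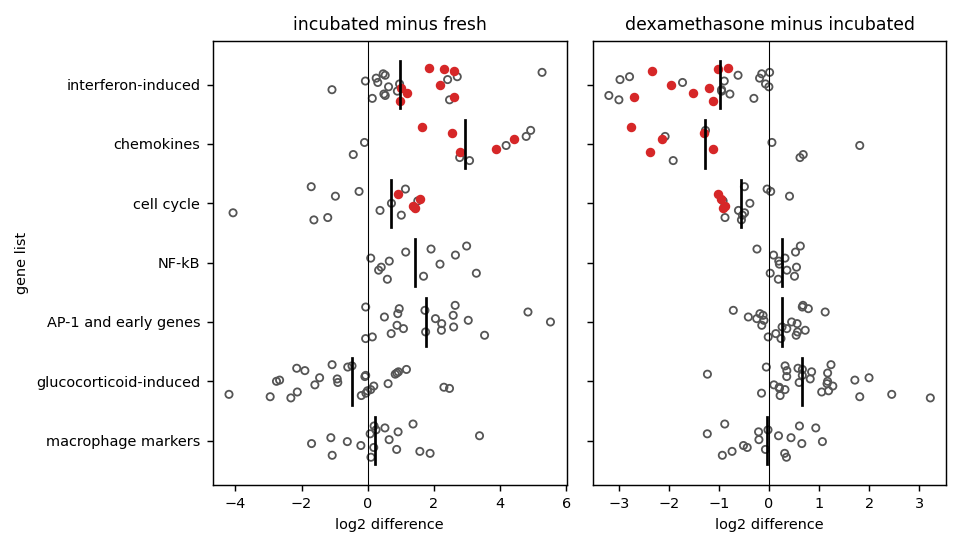
Points are the tested genes of 7 lists, placed by log2 difference incubated minus fresh (left) and dexamethasone minus incubated (right), with members filled red, other genes open and a bar at the median of each list. Interferon-induced, chemokine and cell cycle genes lie mostly below zero on the right, with medians of -0.98, -1.29 and -0.55. These 3 medians include members, which were chosen for their fall. Without members they are -0.84, 0.057 and -0.49, with genes left out by name still counted. NF-kB, AP-1 and glucocorticoid-induced genes have medians of 0.26, 0.26 and 0.67 on the deposited scale.

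Arrays of a group correlated with a Pearson's r of 0.984 to 0.989 across probe sets and a median SD of 0.087 to 0.092 on the log2 scale, and no arrays held identical values. The number of arrays limits the precision. Epithelial markers were present in all groups, with a summed signal over 12 genes of 44642 to 45740 on fresh, 86610 to 89183 on incubated and 95990 to 100520 on dexamethasone arrays. Of 7 mesothelial markers, 5 were under 200 on every array. Fresh tissue also carried markers of neighbouring cochlear cells. The summed signal of 8 spiral ligament fibrocyte markers was 60034 to 61866 on fresh and 2553 to 2639 on incubated arrays, and that of 9 neuron markers was 21558 to 22021 on fresh and 550.4 to 600.1 on incubated arrays. The part of these cells in the differences from fresh tissue was not tested.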

How the data were processed

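Small amounts of total RNA were amplified in 2 rounds of in vitro transcription before hybridization, per the labels. The authors deposited intensity values on a linear scale, scaled with all probe sets of an array to a target signal of 500 (further normalization factor 1, per the labels); the summarising software is not given in the sources used here. Of 45101 probe sets, 34945 had 1 gene symbol in the platform annotation, with gene IDs checked against RefSeq. No detection calls were used, and 200 served as the floor: no level is given where a group mean is under it, and "at least" folds use it where all arrays of a group lie under it. Log2(signal + 32) of 18913 probe sets (200 or more on at least 3 arrays, no controls) was fitted with 1 mean per group in limma 3.58.1 (R 4.3.3; lmFit, eBayes with trend) with Benjamini-Hochberg adjustment, and the fit was tested on simulated data. Tables and figures used Python 3.11.15, pandas 2.3.3, NumPy 2.4.6 and matplotlib 3.10.9.

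The members and gene lists were chosen with earlier results of these data known, and roles were assigned after the values were seen. Array values are printed for the 12 members with the largest smaller difference of the 2 in the rule, the 4 with the highest incubated mean, the 4 called highest and the 4 called lowest against fresh, and members in a gene list; of other listed genes, up to 3 with the smallest adjusted p for dexamethasone against incubated. Array letters did not pair the samples, with correlations of same-letter deviations from -0.0617 to 0.164. Alternatives were other scalings, pseudocounts, filters, fits and rule thresholds, a replicate block and leaving out each array.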

Additional observations from a re-analysis of the deposited data

How the results depend on the processing

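The number of members moved most with the scale: it was 497 on the hybridization control scale, 138 with differences of at least 0.6 and 34 with at least 1.0, against 71. All 71 were among the 497 and the 138. Under the other scalings, pseudocounts, floors and the mean of a gene's probe sets it was 49 to 91, and 69 to 77 without each array in turn, with 63 to 71 of the members kept. Against fresh tissue, members called lower with dexamethasone numbered 11 instead of 7 on the hybridization control scale, also among members with a fresh mean of 200 or more (Irgm1, Pcdh19, Rarb and Xaf1 were added), and no called member changed direction in any setting. Over all probe sets the same scale gave 4279 lower calls in culture (7593 as deposited), and 1232 higher and 13733 lower calls with dexamethasone against incubated (5116 and 4820). Without a filter, 11518 probe sets were lower in culture. With the array letter as a replicate block, 26 members were higher and 7 lower, and it changed no member's call. Signals under 200 limit 23 tested members to the comparisons that chose them, and 3 arrays per group, perhaps from 1 pool each, limit all values.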

Other observations

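Other gene lists held few or no members. As background for their counts, 35.0% of all probe sets tested rose and 40.1% fell in culture, and 27.1% rose and 25.5% fell with dexamethasone. Of 16 matrix protease and inhibitor genes tested, with Timp1 as the only member, 7 rose and 6 fell in culture, and 2 rose and 6 fell with dexamethasone relative to incubated tissue. Of the 6 that fell with dexamethasone, Mmp9, a gelatinase of neutrophils and other cells, had incubated and treated means under 200, so no difference is given for it. Of 7 prostaglandin and nitric oxide enzyme genes, which include the members Ptgs2 and Pla2g4a, 3 rose and 4 fell in culture, and 2 rose and 2 fell with dexamethasone. Alox5ap, the activating protein of 5-lipoxygenase, rose by 1.07 ± 0.0914 (adjusted p = 1.52e-06).

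Of 14 cytokine and cytokine receptor genes, none of them members, 6 rose and 3 fell with dexamethasone, and Il34, a ligand of the CSF1 receptor, rose by 2.01 ± 0.113 (adjusted p = 4.93e-08). Of 6 adhesion genes 3 rose and 1 fell, and Vcam1 fell by 1.21 ± 0.0754 (adjusted p = 1.16e-07). Of 10 complement genes 4 rose and 3 fell, and C1s1 fell by 1.27 ± 0.0677 (adjusted p = 3.09e-08). Of 4 EGF receptor ligand genes 2 rose and 2 fell, and Btc fell by 0.79 ± 0.125 (adjusted p = 0.000201). On the hybridization control scale the medians with dexamethasone were -0.46 for cytokines, -0.18 for adhesion, -0.33 for complement, -0.37 for prostaglandin enzymes, -0.47 for EGF ligands and -0.59 for matrix proteases, against 0.019, 0.30, 0.14, 0.11, 0.0029 and -0.11 on the deposited scale.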
